A study of Mus musculus with 6 samples.

Results

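RNA of the proteasome gene family was measured in a mouse FRC line. Fibroblastic reticular cells, or FRCs, are fibroblasts of the lymph node that carry its conduits and T cell zones. Members were all symbols of the deposited count table that consist of Psm, a letter from a to g and a number, which gave 48 of 55367 symbols. Of these, 5 are the subunits known to be induced by interferon (Psmb8, Psmb9, Psmb10, Psme1 and Psme2) and 43 are other members, mainly constitutive subunits, regulators and assembly factors. A filter on low counts kept 46 of the 48, among 15055 genes tested. The members left out were Psma8, the alpha subunit of the testis, and Psmb11, the catalytic subunit of thymic cortical epithelium. Each had at most 2 counts in any library, where a count of 0 allows up to 0.139 to 0.223 CPM (counts scaled to a library total of 1000000).

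Cells of this line were kept for 96 h in medium that other cells had conditioned for 24 h, to which 2% serum was added and which was renewed every 48 h. Control medium (FRC_CCM) was conditioned by the FRC line itself, and tumour media came from the mouse mammary carcinoma lines 67NR (67NR_TCM), known as non-metastatic, and 4T1 (4T1_TCM), known as metastatic. Each medium had 2 libraries of poly(A) RNA, and no group received unconditioned medium, so that tumour products, absent FRC products and nutrients spent in conditioning cannot be told apart. The line stands for FRCs in culture only: Ccl19 and Ccl21a, chemokines that define FRCs in lymph nodes, had 0 counts in all 6 libraries, while Pdpn, Pdgfrb and Col1a1 were present. Icam1, listed as a marker as well, had 1 to 7 counts per library, and the listed Col1a2 was at 5.20 to 15.7 CPM. Whether replicate libraries came from separate cultures is not stated in the labels, and the p-values given here cover no more than the spread among these libraries, which may be technical.

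As background, the proteasome is the barrel-shaped protease that degrades ubiquitin-tagged proteins. Its 20S core stacks rings of alpha subunits (Psma), which gate the entry, around rings of beta subunits (Psmb), of which Psmb5, Psmb6 and Psmb7 cut peptide bonds. The 19S cap unfolds substrates with ATPases (Psmc) and recognises and strips ubiquitin with non-ATPase subunits (Psmd). Interferon is known to induce Psmb8, Psmb9 and Psmb10, which take the places of Psmb5, Psmb6 and Psmb7 in newly built cores called immunoproteasomes, and the cap Psme1/Psme2 (PA28 alpha and beta), and these change the peptides offered on MHC class I. In lymph node stroma this machinery serves the display of self peptides to T cells.

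The sequence before each start site was read for letters that resemble binding sites of factors known to drive these genes, because the inducible and the constitutive members are textbook targets of different factors. RefSeq (GRCm38.p6) gave start sites for 40 of the 48 members, with 43 windows of 250 bases upstream. The letters GAAA, any 2 bases and GAAA again, as in interferon-stimulated response elements, were searched on both strands, like the patterns below, and stood in 3 of the 43 windows, against 2.98% of all 32851 windows. None of the 5 inducible members had them there, and no match says only that these letters are not in this window. The letters TTCNNNGAA, as in gamma-activated sites, stood in 2 of the 43 windows (7.02% of all windows), among them that of Psmb8. The letters TGACNNNGC, as in the elements bound by Nfe2l1, the factor that drives proteasome genes when proteasome activity falls, stood in 5 of the 43 windows (10.2% of all windows). A match describes letters and no binding site.

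The sites below are shown 5′ to 3′ on the gene's strand, with the matching letters in capitals, for Psmb8, for the catalytic subunits Psmb5 and Psmb6 that Psmb8 and Psmb9 replace, and for the 3 members that matched the interferon letters.
Psmb8, chr17:34198088-34198117, plus strand: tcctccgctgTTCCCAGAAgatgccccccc
Psmb5, chr14:54618023-54618052, minus strand: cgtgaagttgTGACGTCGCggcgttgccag
Psmb6, chr11:70525327-70525356, plus strand: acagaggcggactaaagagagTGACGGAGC
Psmb3, chr11:97703261-97703290, plus strand: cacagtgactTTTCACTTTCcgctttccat
Psmd4, chr3:95042675-95042704, minus strand: ataaccaaccTTTCCATTTCtgtggcgcct
Psmd9, chr5:123228021-123228050, plus strand: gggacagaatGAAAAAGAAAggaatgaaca
The match of Psmb8 begins 97 bases before its RefSeq start, but its window lies wholly within annotated exons of GENCODE. The sites of Psmb8 and Psmd9 both fall inside the GENCODE bounds of their genes, which have further starts upstream. Psme1 and Psme2, neighbours on chromosome 14 whose products form 1 ring, held none of the 3 patterns in their windows, and stretches of those windows outside every annotated exon read as follows. The stretch of Psme1 falls inside the GENCODE bounds of its gene (55578123 to 55581529), after the first annotated start, and so is not sequence upstream of the whole gene. Psme2 has a pair of RefSeq starts, and the stretch shown is that of the window with 158 such bases, which lies within the 238 bases of the other.
Psme1, chr14:55578249-55578359, plus strand: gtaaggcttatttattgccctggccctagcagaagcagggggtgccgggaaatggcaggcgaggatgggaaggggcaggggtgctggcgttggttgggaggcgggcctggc
Psme2, chr14:55591114-55591271, minus strand: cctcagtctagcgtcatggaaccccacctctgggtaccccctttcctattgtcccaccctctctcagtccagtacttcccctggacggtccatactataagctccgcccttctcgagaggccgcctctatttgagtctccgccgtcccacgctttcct

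Total counts per library ran from 13581510 to 21797578, so that 1 count stood for 0.0463 to 0.0743 CPM. The 48 members together took 0.463 to 0.519% of all counts. Summed levels of the 43 other members were 5068 and 5029 CPM in the control libraries, 4602 and 4578.5 CPM in 67NR medium and 4825 and 4474.5 CPM in 4T1 medium. Those of the 5 inducible members were 118 and 110 CPM, 162 and 161 CPM, and 132 and 119 CPM. In 67NR medium the first sum was lower and the last one higher than in control medium, and the libraries of these media did not overlap in either sum. The 4T1 libraries differed from each other more than the others did: replicate 1 was above replicate 2 in 39 of 46 tested members, with a median log2 ratio of 0.13, against 28 and 25 members in control and 67NR medium. Marker genes of leukocytes, cells rich in immunoproteasome, were checked because bulk RNA cannot tell fewer cells of a type from less RNA per cell. Cd3e, Adgre1 and Laptm5 had 0 counts in every library, and the 10 markers listed summed to 8.62 to 9.29 CPM in control, 15.7 to 15.9 CPM in 67NR and 10.4 to 11.6 CPM in 4T1 medium. Cd74 and Lyz2 made up most of that sum. Over the alternatives Cd74 was higher than in control by 1.12 to 1.27 log2 units in 67NR and 1.78 to 1.97 in 4T1 medium. Lyz2 had log2 fold changes of 0.61 to 0.96 in 67NR and −1.53 to −1.17 in 4T1 medium, and Csf1r passed the test in neither. Any part of leukocyte RNA in the levels of the inducible members was not tested. Of 7 markers of mammary carcinoma epithelium Epcam had 0 counts throughout, and the list summed to 7.58 to 8.83 CPM in control, 5.74 to 6.02 CPM in 67NR and 1.58 to 2.23 CPM in 4T1 medium. The 4 endothelial markers summed to 0.654 to 2.69 CPM over the 6 libraries.

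Medium of the non-metastatic line 67NR was set against the FRCs' own medium first. All 5 inducible members rose, Psmb8 4.70-fold and Psmb9 3.24-fold from low levels and Psmb10, Psme1 and Psme2 by 1.33- to 1.37-fold. The constitutive side of the family was lower or not different: 19 of the 41 other tested members fell, and 1, the 19S ATPase Psmc3, rose. Across all genes tested, 13.0% were called higher and 14.6% lower (edgeR quasi-likelihood, Benjamini-Hochberg adjusted p under 0.05). Among the other members the shares were 2.44% higher and 46.3% lower, with a median log2 fold change of −0.19 against 0.00 over all genes tested.

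Psmb8 (chromosome 17, 34197721 to 34201454, plus strand, GRCm38, GENCODE M21) encodes the inducible subunit with chymotrypsin-like activity. Its level was 1.51 and 0.892 CPM in control replicates 1 and 2, 6.25 and 5.50 CPM in 67NR medium, and 5.54 and 3.81 CPM in 4T1 medium. Every library of either tumour medium was above both control libraries, and the 67NR and 4T1 libraries overlapped. The rise in 67NR medium was 2.23 on the log2 scale (SE 0.27, edgeR quasi-likelihood adjusted p = 5.5e-05). The gene was sparsely counted, with 29 and 12 counts in control libraries and 135 and 113 in 67NR medium, and the exact 95% counting intervals were 1.01 to 2.16 and 0.461 to 1.56 CPM in the control libraries. Psmb9 (chromosome 17, 34181987 to 34187764, minus strand), the inducible subunit that replaces Psmb6, was at 1.19 and 1.78 CPM in control, 4.96 and 4.43 CPM in 67NR and 3.51 and 2.29 CPM in 4T1 medium. The media did not overlap for Psmb9, with 67NR highest and control lowest. Its rise in 67NR medium was 1.69 (SE 0.27, edgeR adjusted p = 0.00048). Psmb9 shares 212 bases of exon with Tap1 on the opposite strand and Psmb8 498 bases with Gm20496. Tap1 was also higher in tumour media. The part of such reads in Psmb9 was not tested, as the strand setting of the counting is not given in the sources used here. Exons of 13 members overlap those of another gene, among them Psmb7 (405 bases opposite Nek6) and Psmd9 (1849 bases opposite Gm26745).

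Psmb10 (chromosome 8, 105935735 to 105938444, minus strand), the inducible subunit with trypsin-like activity, was present at moderate levels in every library: 24.8 and 24.0 CPM in control, 34.0 and 32.8 CPM in 67NR and 23.7 and 23.0 CPM in 4T1 medium. Both 67NR libraries stood above the other 4. The rise in 67NR medium was 0.45 on the log2 scale (SE 0.08, edgeR adjusted p = 0.0013). Psme1 (chromosome 14, 55578123 to 55581529, plus strand), the alpha subunit of PA28, was at 64.8 and 60.0 CPM in control, 83.9 and 85.1 CPM in 67NR and 71.0 and 62.3 CPM in 4T1 medium. Again the 67NR libraries were highest, while control and 4T1 overlapped, and the rise was 0.44 (SE 0.08, edgeR adjusted p = 0.0012). Psme2 (chromosome 14, 55587441 to 55591113, minus strand), the beta subunit, was at 26.0 and 23.6 CPM in control, 32.7 and 33.4 CPM in 67NR and 28.5 and 27.6 CPM in 4T1 medium, with no overlap between media. It rose by 0.41 in 67NR medium (SE 0.08, edgeR adjusted p = 0.0033), or by 0.34 without control replicate 2, where the call was lost (adjusted p = 0.0503). Its intronless copy Psme2b holds 28.3% of the 50-base words of Psme2, so reads may be split between them, and the summed counts of both rose by 0.29 (edgeR adjusted p = 0.0072). Psme2b had more counts than Psme2 in every library, at 68.7 and 69.2 CPM in control, 78.9 and 84.6 CPM in 67NR and 78.5 and 71.2 CPM in 4T1 medium. Its own rise in 67NR medium was 0.25 (edgeR adjusted p = 0.026).

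**Figure D1:**
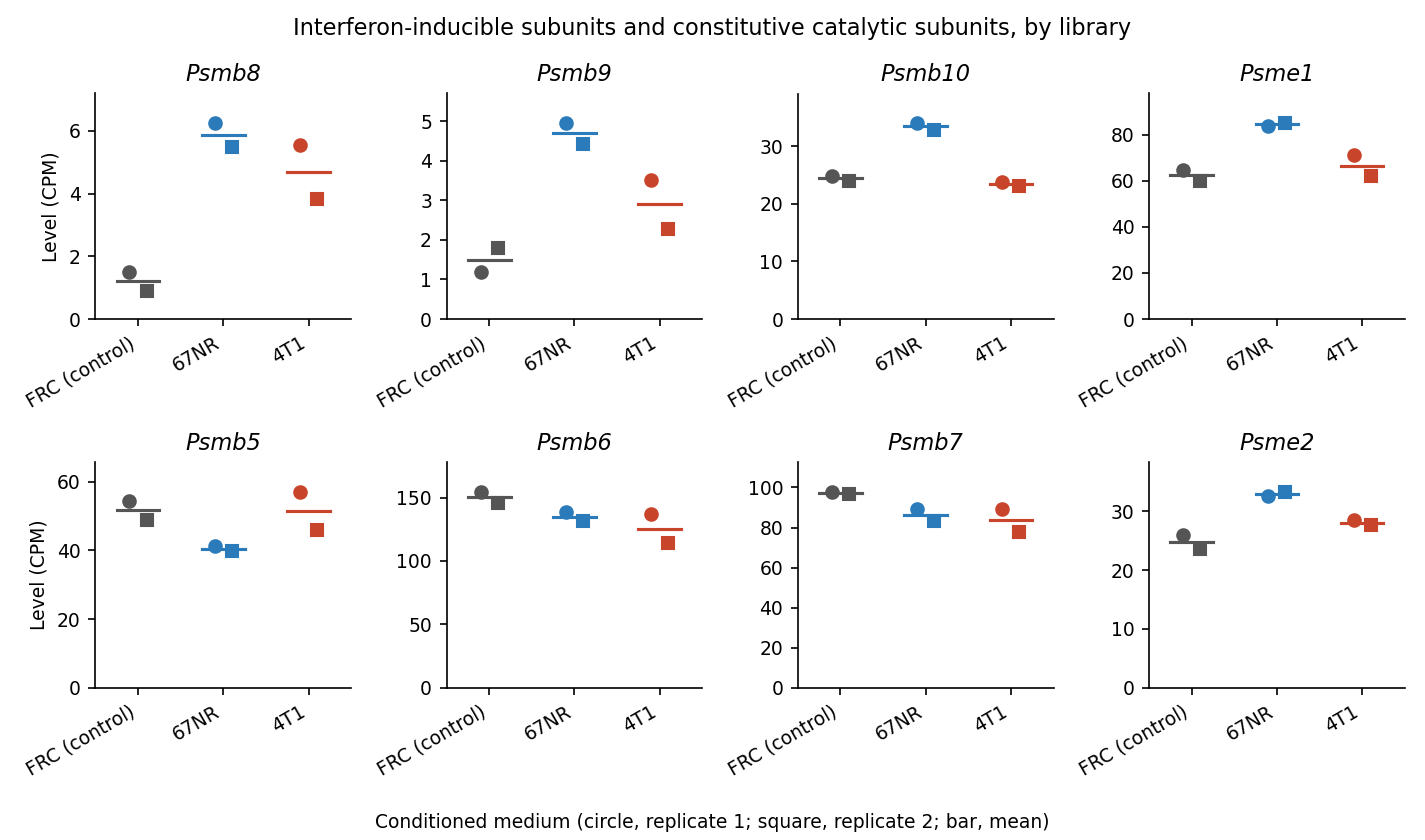
Level in CPM (vertical axis, linear from 0) of the 5 interferon-inducible subunits and the 3 constitutive catalytic subunits in each library, by conditioned medium; circles are replicate 1, squares replicate 2 and bars group means. Psmb8 goes from 1.51 and 0.892 CPM in control medium to 6.25 and 5.50 CPM in 67NR medium, while the 67NR libraries of its counterpart Psmb5 lie below both control libraries, at 41.3 and 39.7 CPM against 54.4 and 48.9 CPM.

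The constitutive catalytic subunits differed from control by less than Psmb8 and Psmb9 did in either tumour medium. Psmb5, with chymotrypsin-like activity, was at 54.4 and 48.9 CPM in control, 41.3 and 39.7 CPM in 67NR and 57.1 and 46.0 CPM in 4T1 medium. Both 67NR libraries were below the other 4. It fell by 0.35 on the log2 scale in 67NR medium (SE 0.10, edgeR adjusted p = 0.018), a call lost without control replicate 1 (adjusted p = 0.183), 67NR replicate 1 (0.0758) or 67NR replicate 2 (0.122). The gene copy Gm3375 holds 46.8% of the 50-base words of Psmb5, and the summed counts of both fell by 0.29 (edgeR adjusted p = 0.016). Psmb6, with caspase-like activity, was at 155 and 146 CPM in control, 138 and 131 CPM in 67NR and 137 and 114 CPM in 4T1 medium. Psmb7, with trypsin-like activity, was at 98.0 and 96.6 CPM, 89.4 and 83.4 CPM, and 89.3 and 77.7 CPM. For both genes every tumour-medium library was below both control libraries. Neither passed the test in 67NR medium, where the log2 fold changes were −0.16 and −0.17 (edgeR adjusted p = 0.19 and 0.12). With either 4T1 library left out of the fit, both passed (edgeR adjusted p = 0.033 for Psmb6 and 0.027 for Psmb7).

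Levels of different genes were compared per kilobase of the principal transcript. On that scale Psmb8 and Psmb9 were the scarcest of the 46 tested members in control medium, at 0.736 and 1.10 CPM per kilobase, against 18.6 for Psmb10 and 57.5 for Psmb5. By library, Psmb8 made up 1.51 and 0.997% of Psmb8 plus Psmb5 in control medium, 7.71 and 7.11% in 67NR and 5.09 and 4.38% in 4T1 medium. Psmb9 made up 0.453 and 0.718% of Psmb9 plus Psmb6 in control, 2.07 and 1.95% in 67NR and 1.49 and 1.17% in 4T1 medium. Psmb10 made up 18.3 and 18.0% of Psmb10 plus Psmb7 in control, 25.2 and 25.8% in 67NR and 19.04 and 20.8% in 4T1 medium. In all 3 pairs the order of the media was 67NR, 4T1 and control with no overlap. Psmb10 itself was not higher in 4T1 than in control medium (23.7 and 23.0 against 24.8 and 24.0 CPM). Its higher share there reflects the lower level of Psmb7. In every library the constitutive transcript was the more abundant one. The log2 ratio of the 3 inducible to the 3 constitutive subunits in summed CPM was −3.48 and −3.45 in control, −2.57 and −2.57 in 67NR and −3.11 and −3.03 in 4T1 medium. With 2 libraries against 2, an exact two-sided permutation test cannot go below p = 0.333, and no other test of these shares was run. They depend on the length taken: over the union of all annotated exons, an alternative chosen after the data had been seen, the Psmb8 share was 0.730 and 0.483% in control, 3.87 and 3.56% in 67NR and 2.52 and 2.16% in 4T1 medium. The Psmb10 share on that length was 33.7 and 33.3%, 43.3 and 44.1%, and 34.8 and 37.3%, and the order of the media was the same. Counts of the Psmb5 copy Gm3375 were not added to Psmb5 in these shares and ratios. Gm3375 was at 49.1 and 48.7 CPM in control, 43.3 and 40.8 CPM in 67NR and 51.7 and 49.1 CPM in 4T1 medium. Any part of these counts that came from Psmb5 would lower the Psmb8 shares and the ratio.

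**Figure D2:**
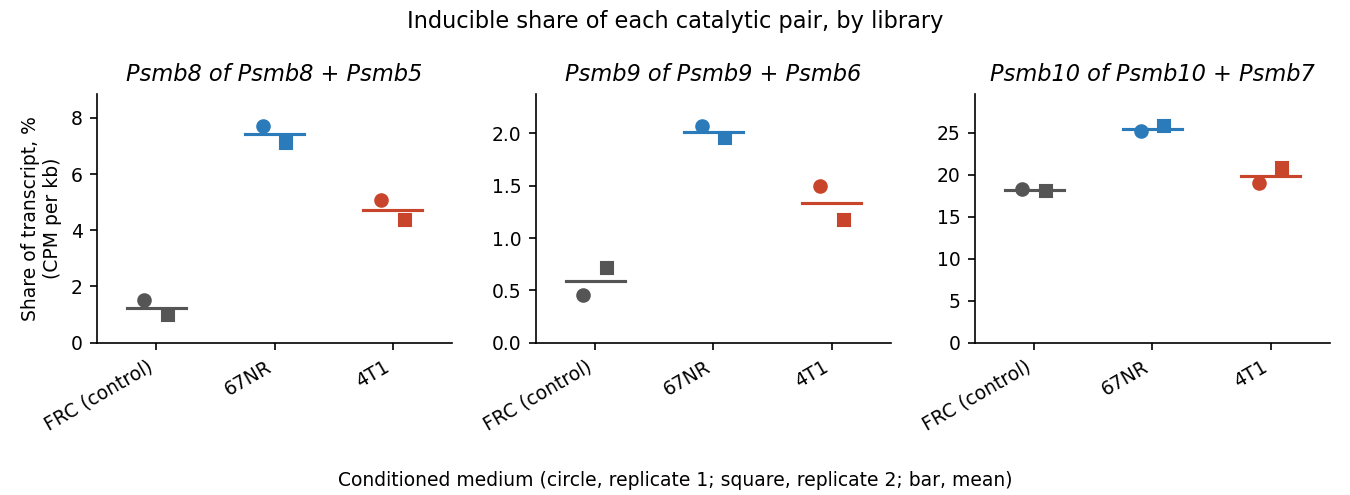
Share of the inducible subunit in each catalytic pair, in percent of CPM per kilobase of principal transcript (vertical axis, linear from 0, a separate scale per panel), by library and medium; circles are replicate 1, squares replicate 2 and bars group means. The 67NR libraries are highest in each panel, at 7.71 and 7.11% for Psmb8, 2.07 and 1.95% for Psmb9 and 25.2 and 25.8% for Psmb10.

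Outside the catalytic positions of the 20S core, alpha subunits were lower or not different in 67NR medium, and structural beta subunits differed little. Of the 7 alpha subunits tested, 3 fell (Psma1, Psma2 and Psma3) and none rose, with a median log2 fold change of −0.16 and values from −0.27 for Psma3 to −0.03 for Psma6. None of the 4 structural beta subunits (Psmb1, Psmb2, Psmb3 and Psmb4) passed the test in either direction, with log2 fold changes from −0.06 for Psmb3 to 0.08 for Psmb1. Psmb3, Psmd4 and Psmd9, whose upstream sites with the interferon letters are shown above, had log2 fold changes of −0.06, −0.12 and −0.19 and did not pass the test in 67NR medium. In 4T1 medium Psmd4 fell (−0.27, edgeR adjusted p = 0.014, lost in 2 of 13 alternatives), and Psmb3 and Psmd9 did not pass the test (−0.08 and −0.23). The 19S cap held most of the falls: 11 of its 17 subunits fell and 1 rose, and the non-ATPase subunit nearest to 0 was Psmd11 at −0.05. Psmd13, a lid subunit, had the largest fall, from 89.97 and 88.4 CPM in control to 69.3 and 67.9 CPM in 67NR medium. The 2 media did not overlap (log2 fold change −0.38, SE 0.07, edgeR adjusted p = 0.0011). Psmd13 shares 342 bases of exon with Sirt3 on the opposite strand. It was the only one of the 19 falls called in all 4 fits that left out a control or 67NR library, although all 19 kept their sign in those fits. The number of other members called lower was 4 without control replicate 1, 6 without control replicate 2, and 3 without 67NR replicate 1 or replicate 2.

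Psmc3, an ATPase of the 19S base, stood apart from the rest of the cap. Its level was 234 and 238 CPM in control, 323 and 309 CPM in 67NR and 207 and 179 CPM in 4T1 medium. The 3 media did not overlap, with 67NR highest and 4T1 lowest. It rose by 0.42 on the log2 scale in 67NR medium (SE 0.07, edgeR adjusted p = 0.00095). The other 5 ATPases had log2 fold changes from −0.31 to −0.18, and of these Psmc4, Psmc5 and Psmc6 fell. The 50-base words of Psmc3 are found in no other gene, and 215 bases of its exons lie opposite Slc39a13 on the other strand. Among the remaining regulators, Psme3, the PA28 gamma cap of the nucleus, fell from 116 and 116 to 97.7 and 91.3 CPM (log2 fold change −0.30, edgeR adjusted p = 0.0042, and 0.0884 without 67NR replicate 2). Psme4 (PA200), a nuclear activator, fell from 187 and 189 to 160 and 166 CPM, with 162 and 180 CPM in 4T1 medium (log2 fold change −0.21, edgeR adjusted p = 0.035), a call lost without any 1 of the 4 libraries compared (edgeR adjusted p = 0.13 to 0.25). Psmf1, an inhibitor, was at 31.0 to 40.2 CPM over the 6 libraries and passed the test in no comparison. Of the 7 assembly chaperones, Psmg1 and Psmg2 fell and the other 5 did not pass the test, with Psmd5 nearest to 0 at −0.09. The fall of Psmg1 (log2 fold change −0.33, edgeR adjusted p = 0.029) was lost without any 1 of the 4 libraries compared (adjusted p = 0.0595 to 0.224).

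**Figure D3:**
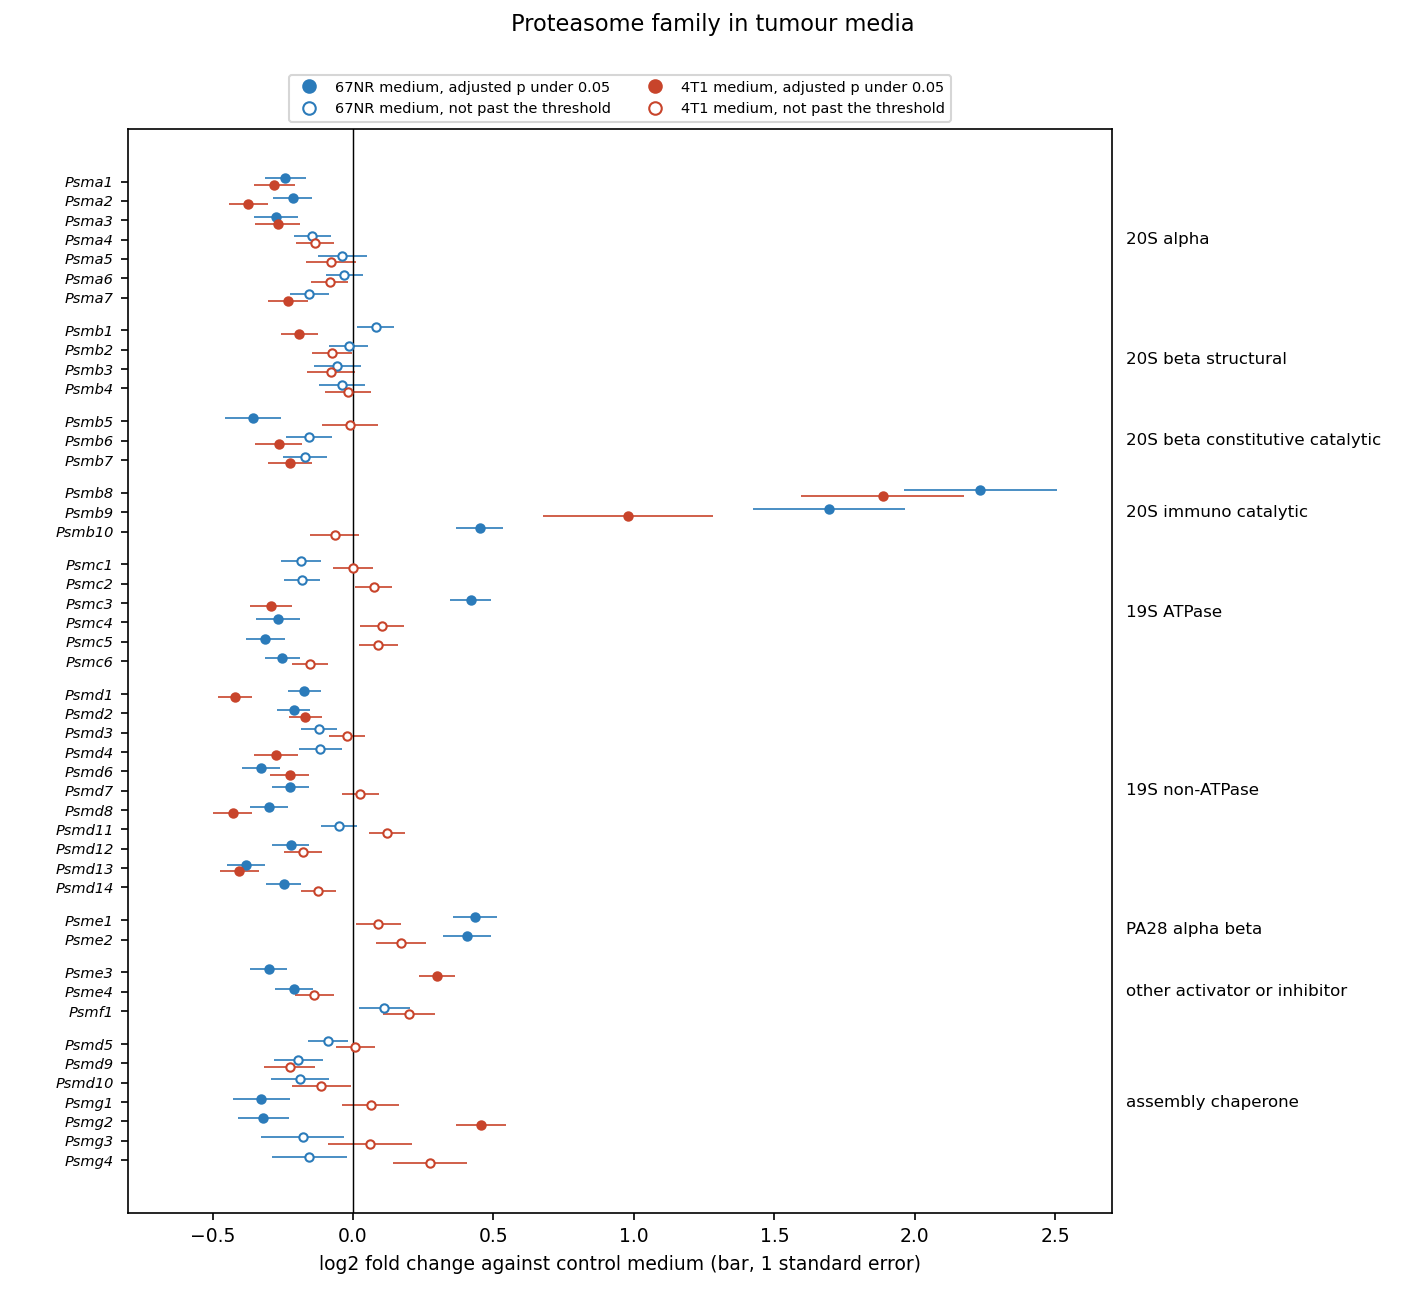
Log2 fold change against control medium (horizontal axis) of the 46 tested members, grouped by role, for 67NR medium (blue) and 4T1 medium (red); bars are 1 standard error and filled points have an adjusted p under 0.05. Psmb8 and Psmb9 lie to the right in both media, Psmb10, Psme1, Psme2 and Psmc3 are filled to the right of 0 in 67NR medium, and the members that are not inducible lie between −0.43 and 0.46.

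Medium of the metastatic line 4T1 was then set against the same control libraries, so that the 2 comparisons are not independent. Here 2 of the 5 inducible members rose, Psmb8 3.70-fold and Psmb9 1.97-fold. Of the 41 other tested members 2 rose, the nuclear cap Psme3 and the core assembly chaperone Psmg2, and 14 fell. Across all genes tested 19.9% were called higher and 19.2% lower (edgeR quasi-likelihood), and the shares of the other members were 4.88% and 34.1%, with a median log2 fold change of −0.11 against 0.01 over all genes. The number called lower moved with single libraries: it was 5 without control replicate 1 or 2, 8 without 4T1 replicate 2 and 22 without 4T1 replicate 1.

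The rise of Psmb8 in 4T1 medium was 1.89 on the log2 scale (SE 0.29, edgeR adjusted p = 0.00021), and it was called in all 13 alternatives, with values from 1.60 to 2.35. That of Psmb9 was 0.98 (SE 0.30, edgeR adjusted p = 0.021). The Psmb9 call was lost without control replicate 1 (log2 fold change 0.66, adjusted p = 0.218), without 4T1 replicate 1 (0.65, adjusted p = 0.149) and by DESeq2 (adjusted p = 0.078). Psmb10, Psme1 and Psme2 did not pass the test, with log2 fold changes of −0.06 (95% interval −0.25 to 0.12), 0.09 (−0.09 to 0.26) and 0.17 (−0.02 to 0.36). Of the constitutive catalytic subunits, Psmb6 and Psmb7 fell, with log2 fold changes of −0.26 and −0.22 (edgeR adjusted p = 0.024 and 0.039). Psmb6 missed the threshold without control replicate 1 (edgeR adjusted p = 0.157), control replicate 2 (0.0568) or 4T1 replicate 2 (0.111), and Psmb7 without any library except 4T1 replicate 1 (adjusted p = 0.0637 to 0.167). The Psmb7 call was also lost with library totals alone (edgeR adjusted p = 0.073), with only the 2 groups compared in the fit (0.0635) and by DESeq2 (0.0708). Psmb5 had a log2 fold change of −0.01 (95% interval −0.23 to 0.21).

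In 4T1 medium the alpha subunits Psma1, Psma2, Psma3 and Psma7 fell, with log2 fold changes in the ring from −0.37 for Psma2 to −0.08 for Psma5. Psma5 shares 49.1% of its 50-base words with other genes, and summed with its copies Psma5-ps and Gm12989 it had −0.11 (edgeR adjusted p = 0.29). Psma3 shares 15.4% with Gm13835, whose counts were not added. Of the structural beta subunits Psmb1 fell (−0.19, edgeR adjusted p = 0.037, lost in 7 of 13 alternatives with values up to 0.157) and the others did not pass the test, with Psmb4 at −0.02. Of 11 non-ATPase subunits of the cap 6 fell, and Psmd11 was highest at 0.12 without passing the test. Psmc3 was the 1 ATPase that fell, and the highest, Psmc4 at 0.10, did not pass the test. Psmd1, a scaffold of the cap, went from 208 and 210 CPM in control to 186 and 185 CPM in 67NR and 156 and 158 CPM in 4T1 medium. The media did not overlap, and 4T1 was lowest. Its log2 fold change in 4T1 medium was −0.42 (SE 0.06, edgeR adjusted p = 0.00012). Exons of Psmd1 share 252 bases with Htr2b on the opposite strand and 301 bases with Gm21972 on the same strand. Psmd8, a lid subunit, fell from 136 and 128 to 101 and 95.2 CPM (log2 fold change −0.43, SE 0.07, edgeR adjusted p = 0.00028), and Psmd13 fell to 69.5 and 65.5 CPM (−0.40, SE 0.07, edgeR adjusted p = 0.00046). These 3 and Psma2 were the 4 of 14 falls called in all 4 fits without a control or 4T1 library, and all 14 kept their sign.

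Psme3 was at 116 and 116 CPM in control, 97.7 and 91.3 CPM in 67NR and 143 and 143 CPM in 4T1 medium. The libraries of each medium lay close together and apart from the others, with 4T1 highest. Its rise in 4T1 medium was 0.30 on the log2 scale (SE 0.06, edgeR adjusted p = 0.0026). Psmg2, which with Psmg1 starts the assembly of the alpha ring, was at 26.7 and 29.9 CPM in control, 22.4 and 22.8 CPM in 67NR and 40.0 and 37.4 CPM in 4T1 medium, again with no overlap. It rose by 0.46 in 4T1 medium (SE 0.09, edgeR adjusted p = 0.0011). Both rises were called without each library in turn. The lowest assembly chaperone, Psmd9 at −0.23, did not pass the test (edgeR adjusted p = 0.066). In 67NR medium Psmg2 had fallen by 0.32 (edgeR adjusted p = 0.018), a call lost without control replicate 2 (adjusted p = 0.165), 67NR replicate 1 (0.123) or 67NR replicate 2 (0.0921).

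The direct comparison of 4T1 with 67NR medium tests whether the tumour media differ from each other. Here 4 of the 5 inducible members were lower in 4T1 medium, and among the other members 11 were higher and 3 lower. Across all genes 23.5% were called higher and 19.9% lower (edgeR quasi-likelihood), and the other members, with 26.8% and 7.32% and a median of 0.04 against 0.03 over all genes, were close to that share in the direction of higher calls. The number called higher was 6 without 67NR replicate 1, 5 without 67NR replicate 2 and 7 without 4T1 replicate 1, where 7 were called lower.

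Psmb10 had a log2 fold change of −0.52 from 67NR to 4T1 medium (SE 0.08, edgeR adjusted p = 0.00022) and Psme1 of −0.35 (SE 0.08, edgeR adjusted p = 0.0030). Both were called in all 13 alternatives. The values were −0.72 for Psmb9 (SE 0.24, edgeR adjusted p = 0.027) and −0.24 for Psme2 (SE 0.08, edgeR adjusted p = 0.037). Psmb9 missed the threshold without 67NR replicate 1 (edgeR adjusted p = 0.143), 67NR replicate 2 (0.0603) or 4T1 replicate 2 (0.224), and Psme2 without the same libraries (0.121, 0.179 and 0.0899) and when summed with Psme2b (adjusted p = 0.082). By DESeq2 neither was called (adjusted p = 0.158 for Psmb9 and 0.153 for Psme2), and Psme2 was also lost with library totals alone (edgeR adjusted p = 0.0842) and without the filter on low counts (0.0534). Psmb8 did not pass the test (log2 fold change −0.35, 95% interval −0.81 to 0.12, edgeR adjusted p = 0.22), and passed it narrowly without 4T1 replicate 1 (−0.63, adjusted p = 0.0497).

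Psmc3 had a log2 fold change of −0.71 from 67NR to 4T1 medium (SE 0.07, edgeR adjusted p = 5.0e-06), and of −0.29 from control to 4T1 medium (edgeR adjusted p = 0.0073, and 0.0557 without control replicate 2). The ATPases Psmc1, Psmc2, Psmc4 and Psmc5 were higher in 4T1 than in 67NR medium, opposite to Psmc3. The call of Psmc1 (log2 fold change 0.18, edgeR adjusted p = 0.049) was lost in 9 of 13 alternatives, among them those without 67NR replicate 1 (adjusted p = 0.196), 67NR replicate 2 (0.205), 4T1 replicate 1 (0.273) or either control library (0.0965 and 0.0798). That of Psmc2 (0.26, edgeR adjusted p = 0.0061) was lost without 67NR replicate 2 (adjusted p = 0.077), and those of Psmc4 and Psmc5 in none of the 13. Psmc5 was at 138 and 135 CPM in control, 107 and 114 CPM in 67NR and 153 and 139 CPM in 4T1 medium, a difference between the tumour media of 0.40 on the log2 scale (SE 0.07, edgeR adjusted p = 0.00043). Both 67NR libraries were lowest. Psmg2 differed by 0.78 (SE 0.09, edgeR adjusted p = 1.0e-05) and Psme3 by 0.60 (SE 0.06, edgeR adjusted p = 7.2e-06), the largest differences in the higher direction among the members. Of the assembly chaperones, Psmg1 and Psmg4 were also higher in 4T1 medium (log2 fold changes 0.39 and 0.43, edgeR adjusted p = 0.0069 and 0.017). Psmg1 missed the threshold without 67NR replicate 2 (edgeR adjusted p = 0.0868) or 4T1 replicate 1 (0.0501). Psmg4 missed it without 67NR replicate 1 (edgeR adjusted p = 0.0708), 67NR replicate 2 (0.0925) or 4T1 replicate 2 (0.145), and by DESeq2 (0.132). Psmd7, the partner of the deubiquitinase Psmd14 in the lid, was 0.25 higher (edgeR adjusted p = 0.0078, and 0.108 without 67NR replicate 1), while Psmd1 was lower (log2 fold change −0.25, edgeR adjusted p = 0.0050, and 0.0577 without 67NR replicate 1). Psmb1 was lower as well (−0.27, edgeR adjusted p = 0.0049, and 0.0714 without 67NR replicate 2). None of the alpha subunits passed the test, with log2 fold changes from −0.16 for Psma2 to 0.01 for Psma4. Psmb5 was 0.34 higher (SE 0.10, edgeR adjusted p = 0.014), which missed the threshold without 67NR replicate 1 (adjusted p = 0.0508), 67NR replicate 2 (0.0950) or 4T1 replicate 1 (0.118).

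**Figure D4:**
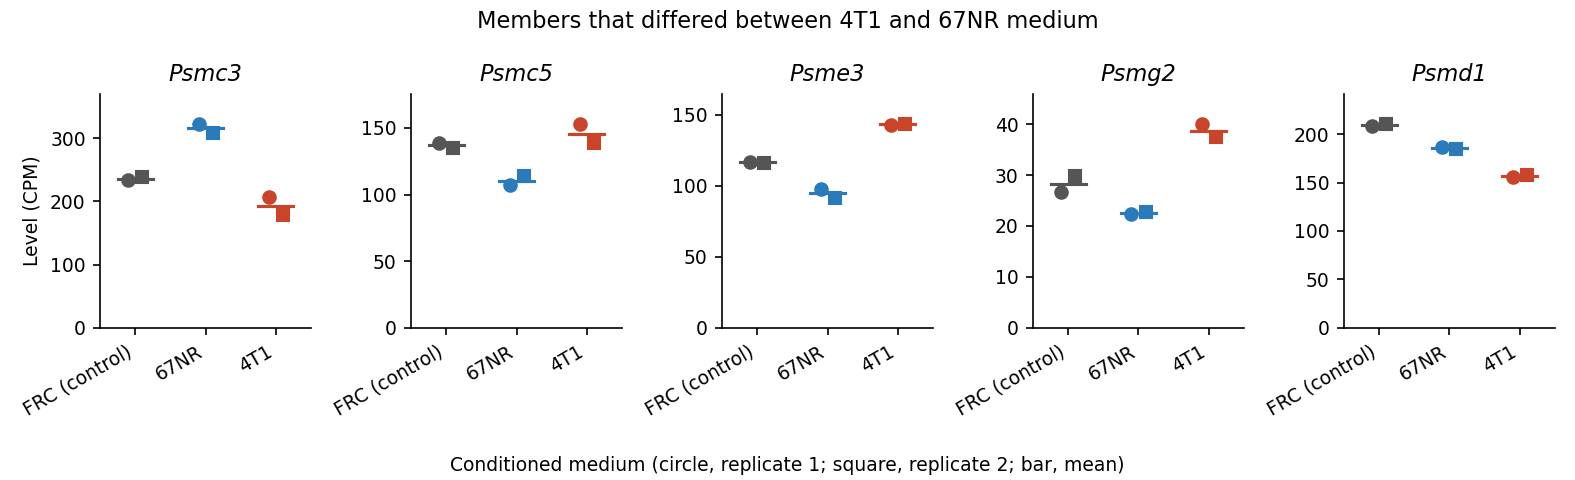
Level in CPM (vertical axis, linear from 0, a separate scale per panel) of 5 members that differed between 4T1 and 67NR medium, by library and medium; circles are replicate 1, squares replicate 2 and bars group means. Psmc3 and Psmd1 are lowest in 4T1 medium, at 207 and 179 CPM and at 156 and 158 CPM, while Psmc5, Psme3 and Psmg2 are lowest in 67NR medium.

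Genes that work with the family were counted from lists of textbook members, to be read against the shares of all genes given above: 13.0% higher and 14.6% lower in 67NR medium, and 19.9% and 19.2% in 4T1 medium. Of 9 tested genes of interferon signalling, 6 rose and none fell in 67NR medium, and 6 rose and none fell in 4T1 medium. The 6 were not the same genes in both media. Irf2, called in 67NR medium alone (log2 fold change 0.30), lost its call in 3 of 13 alternatives. Jak1, called in 4T1 medium alone (0.21), lost its call in 7 of 13. The sparsely counted Nlrc5 was lost in 2 of 10 alternatives with a value in 67NR medium, and 3 of 11 in 4T1 medium. Stat2, a signal transducer of interferon receptors, rose by 1.51 and 0.60 in 67NR and 4T1 medium (edgeR adjusted p = 7.0e-08 and 0.00014). Irf9, which joins Stat2 in the complex on interferon-stimulated response elements, rose by 1.43 and 0.73 (edgeR adjusted p = 5.5e-07 and 0.00015). Jak2, a kinase of the interferon gamma receptor and of many cytokine receptors, was at 57.1 and 54.6 CPM in control, 59.9 and 61.5 CPM in 67NR and 386 and 456 CPM in 4T1 medium, a rise of 2.91 in 4T1 medium alone (edgeR adjusted p = 3.4e-11). Irf1, an activator of Psmb9 and Tap1 that was named after its values were seen, rose by 0.40 and 0.36 (edgeR adjusted p = 0.0038 and 0.0052). Its rise in 4T1 medium missed the threshold without control replicate 2 (edgeR adjusted p = 0.0506). Nlrc5, the activator of MHC class I genes, had 0 and 1 counts in control, 8 and 13 counts in 67NR and 6 and 10 counts in 4T1 medium, too few for a fold. From 67NR to 4T1 medium Stat2 and Irf9 were lower (log2 fold changes −0.91 and −0.70), and 1 of the 9 genes, Jak2, was higher.

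Of 10 genes of peptide transport and trimming, which carry proteasome products to MHC class I, 5 rose and 2 fell in 67NR medium, and 2 rose and 3 fell in 4T1 medium, where the share that rose was close to that of all genes. Tap1, a subunit of the peptide transporter and the neighbour of Psmb9, was at 17.9 and 18.0 CPM in control, 47.8 and 43.2 CPM in 67NR and 30.01 and 27.3 CPM in 4T1 medium. The media did not overlap, and the log2 fold changes were 1.34 and 0.67 (edgeR adjusted p = 3.5e-07 and 0.00011). Tap2, the other subunit, rose by 1.34 and 0.93 (edgeR adjusted p = 3.4e-05 and 0.00053). Tapbp, the bridge between transporter and MHC, rose by 0.80 in 67NR medium (edgeR adjusted p = 1.9e-06) and had a log2 fold change of −0.06 in 4T1 medium (adjusted p = 0.55). B2m, the MHC class I light chain, had log2 fold changes of 0.58 in 67NR and −0.54 in 4T1 medium (edgeR adjusted p = 2.0e-05 for each). Calr, a chaperone of that complex, had log2 fold changes of 0.37 and −0.91 in the same order (edgeR adjusted p = 0.00060 and 1.0e-07). Pdia3, its partner in peptide loading, fell in 4T1 medium (−0.72, edgeR adjusted p = 9.8e-07). Of the 10 genes, 6 were lower and 2 higher in 4T1 than in 67NR medium, with the largest difference in Calr (−1.28) and B2m (−1.12).

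Proteasome genes outside the symbol rule numbered 12, of which none rose and 4 fell in 67NR medium, and 3 rose and 4 fell in 4T1 medium, the share that rose in the latter being near that of all genes. Uchl5 and Usp14, deubiquitinases that dock on the cap, fell by 0.56 and 0.36 on the log2 scale in 67NR medium (edgeR adjusted p = 0.0022 and 0.00094). In 4T1 medium Uchl5 fell by 0.40 (edgeR adjusted p = 0.013), a call lost without control replicate 2 (adjusted p = 0.0954) or 4T1 replicate 2 (0.0635). Nfe2l1, the factor whose elements the letters shown for Psmb5 and Psmb6 resemble, was at 520 and 489 CPM in control, 513 and 513 CPM in 67NR and 963 and 964 CPM in 4T1 medium. Both 4T1 libraries stood far above the other 4 (log2 fold change 0.93, edgeR adjusted p = 1.0e-07), and Ddi2, the protease that activates its product, rose by 0.40 (edgeR adjusted p = 0.0048). Ngly1, the glycanase that acts on the same protein, fell by 0.33 (edgeR adjusted p = 0.011), a call lost without control replicate 2. Of the members with these letters in their windows, Psmb6 fell in 4T1 medium (−0.26, edgeR adjusted p = 0.024). Psmb5, Psmc6, Psmd12 and Psmd9 did not pass the test there (−0.01, −0.15, −0.18 and −0.23). Any part of Nfe2l1 in these levels was not tested. Of 14 genes of ubiquitin supply and shuttling, 1 rose and 4 fell in 67NR medium, and 2 rose and 2 fell in 4T1 medium, no larger a share than among all genes in either direction of the latter. Ubqln4, which shuttles ubiquitin-tagged substrates, fell by 0.35 in 67NR medium (edgeR adjusted p = 0.0076), a call lost without control replicate 1 (adjusted p = 0.115) or 67NR replicate 2 (0.0958). Vcp, the ATPase that hands unfolded substrates to the proteasome, had the largest fall in 4T1 medium, from 340 and 322 to 253 and 225 CPM (log2 fold change −0.47, edgeR adjusted p = 0.00017).

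All 8 proliferation genes listed, among them Rrm2, Plk1 and Mki67, fell in both tumour media, with median log2 fold changes of −2.30 in 67NR and −0.84 in 4T1 medium. From 67NR to 4T1 medium all 8 were higher, with a median of 1.44, where that of the other proteasome members was 0.04. The part of proliferation in the lower levels of the constitutive subunits was not tested. The share of mitochondrially encoded counts was 1.3 and 1.9% in control, 2.0 and 2.3% in 67NR and 2.1 and 2.4% in 4T1 medium, and its part was not tested either.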

How the data were processed

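The unit of the deposited table is whole read counts for each gene symbol, for which the submitters' processing notes name Subread, mm10 and DESeq2 1.32.0 without giving roles. Aligner settings, the strand setting and the annotation used are not given in these sources. Members and gene lists were chosen with earlier results of these data known. Genes were kept by edgeR's filterByExpr (minimum count 10, minimum total 15), scaled by TMM (CPM are on these scaled totals) and tested in 1 edgeR 4.0.16 quasi-likelihood fit of all 6 libraries, without covariates, with Benjamini-Hochberg adjustment over 15055 genes and calls made under an adjusted p of 0.05. Each standard error is the log2 fold change over the root of its F value, and 95% intervals use the t quantile of the fit's degrees of freedom. The fit was tested on simulated data. It recovered 60.6 to 75.7% of changes of 0.5 on the log2 scale and 87.9 to 93.2% of changes of 1, depending on the comparison. Of its calls, 2.94 to 3.33% were on genes left unchanged. Changes smaller than 0.5, the size of most seen among the members, were not simulated. Counting intervals are exact Poisson intervals, and they and floors of 3 counts cover counting error only. The deposited filtered count table held the same values for its 14629 genes and served as an alternative. Gene positions, lengths and shared 50-base words came from GENCODE M21 models (GRCm38), and sequences from RefSeq (GRCm38.p6). Values in every library were given for the inducible members, Psmb5, Psmb6, Psmb7, Psme3 and Psme4. In every other role the members with the highest and lowest log2 fold change were named, with any called at 0.5 or more in size, and in each related list up to 4 called genes per comparison, largest first. Some listed genes are counted in their lists but not reported here by name. Alternatives were scaling by library totals alone or by DESeq2 size factors, all genes with a count, the authors' filtered gene set, a replicate block, fits of 2 groups only, the DESeq2 1.42.0 Wald test and leaving out each library. Sums of members with near-identical copies, exon-union lengths and the count of inducible members called lower were added after the data were seen. R 4.3.3, Python 3.11.15 and matplotlib 3.10.9 were used.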

Additional observations from a re-analysis of the deposited data

How the results depend on the processing

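With 2 libraries in each medium, single libraries moved the counts of calls more than any scaling did, and no result named in the text changed sign while called. For 67NR against control medium, the 19 other members called lower became 11 by the DESeq2 Wald test and 3 to 25 with 1 library left out, and the 5 inducible members called higher became 4 to 5. For 4T1 against control medium, the 2 inducible members called higher became 1 by DESeq2 (Psmb8) and 1 to 2 with 1 library left out, and the 14 others called lower became 5 to 22. For 4T1 against 67NR medium, the 4 inducible members called lower became 2 by DESeq2 and 2 to 5 with 1 library left out, the 11 others called higher became 5 to 11, and the 3 others called lower became 2 to 7. The cause of these shifts was not tested, except that leaving out a library leaves 1 library in its medium, whose spread is then taken from the other media. Over all genes, the counts called in 67NR medium were 1951 higher and 2199 lower, and at their lowest 1043 and 1184 without 67NR replicate 1. In 4T1 medium 2995 genes were called higher, against 1944 by DESeq2 and 1891 without control replicate 1. Over all tested genes, deviations of libraries with the same replicate number correlated at −0.04, 0.01 and 0.07 in the 3 comparisons. Such low values cannot exclude pairing, as counting error adds to the deviations, and the labels do not say whether a number marks a shared batch. With a replicate block, 5 inducible members were called higher and 21 others lower in 67NR medium, 2 and 15 in 4T1 medium, and 11 others higher and 3 lower in 4T1 against 67NR medium. The members it added were Psmc1 and Psmc2 in 67NR medium and Psmd12 in 4T1 medium, and it removed none. Depth limits Psmb8 and Psmb9 most, at 12 to 29 counts in the control libraries.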
